A study of Mus musculus with 12 samples.

Results

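The 43 genes described here encode splicing factors of 3 families, taken by a rule on symbols from the 24982 gene symbols that each of the 12 libraries lists. They comprise 12 snRNP genes (symbols that start with Snrp), 11 SR genes (Srsf followed by a number) and 20 hnRNP genes (symbols that start with Hnrnp). The rule itself uses no measured value, but the families were chosen with earlier results of these data known. The libraries hold polyA RNA of B lymphocytes that had been taken from spleens of 6-week-old mice, with 4 biological replicates of each genotype. The WT mice are given as C57BL/J6 in the series' description. The Eμ-Myc mice carry a transgene in which an immunoglobulin heavy-chain enhancer drives Myc in the B lineage. The mice of the third group, Eμ-Myc; PRPS2 KO, carry the same transgene and lack PRPS2, an isoform of the enzyme that makes the ribose donor of nucleotide synthesis; they are called the knockout group below. The study set Eμ-Myc against WT to catalogue what Myc changes, and the knockout against Eμ-Myc to ask how the loss of PRPS2 bears on that programme. Whether the knockout covers all tissues is not given in the sources used here.

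Pre-mRNA splicing is carried out by the spliceosome, which is assembled from small nuclear ribonucleoproteins. Each of the major ones, except the U6 particle, carries a ring of Sm proteins around its RNA, to which proteins particular to U1 or U2 are added. SR proteins bind exonic enhancers and mostly favour use of nearby splice sites, while hnRNP proteins coat nascent RNA and often repress sites, so that the balance of both classes shapes alternative splicing. Myc, as a dimer with Max, binds the E-box CACGTG, and Myc-driven lymphoma cells are known to depend on the core splicing machinery.

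The promoters of 4 members are printed, each called higher in Eμ-Myc than in WT. They show letters of this E-box or of the GC box GGGCGG, which Sp factors bind. The sequences are from RefSeq on GRCm38.p6, the 250 bases before an annotated start, 5′ to 3′ on the gene's strand. Capitals mark CACGTG in the first 3 and GGGCGG or its reverse complement CCGCCC in the last. They were read from chr7:27196272-27196521 (minus strand), chr2:75659009-75659258 (plus strand), chr5:99978939-99979188 (minus strand) and chr11:116853095-116853344 (minus strand), in the order of the lines below.
Snrpa: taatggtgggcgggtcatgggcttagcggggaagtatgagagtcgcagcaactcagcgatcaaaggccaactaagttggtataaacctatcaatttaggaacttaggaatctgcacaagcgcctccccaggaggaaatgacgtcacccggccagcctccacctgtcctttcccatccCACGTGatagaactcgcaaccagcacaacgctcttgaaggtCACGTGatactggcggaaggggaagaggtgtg
Hnrnpa3: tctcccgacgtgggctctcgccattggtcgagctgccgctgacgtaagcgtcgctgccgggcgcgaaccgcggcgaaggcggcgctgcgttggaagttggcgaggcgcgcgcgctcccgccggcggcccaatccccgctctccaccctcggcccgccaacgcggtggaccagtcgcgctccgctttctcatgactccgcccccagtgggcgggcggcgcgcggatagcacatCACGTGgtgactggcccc
Hnrnpd: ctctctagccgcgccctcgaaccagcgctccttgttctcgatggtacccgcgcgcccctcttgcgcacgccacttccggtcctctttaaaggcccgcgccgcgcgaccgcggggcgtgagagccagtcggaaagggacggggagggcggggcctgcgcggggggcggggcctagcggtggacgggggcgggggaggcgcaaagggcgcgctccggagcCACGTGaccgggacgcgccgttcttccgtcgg
Srsf2: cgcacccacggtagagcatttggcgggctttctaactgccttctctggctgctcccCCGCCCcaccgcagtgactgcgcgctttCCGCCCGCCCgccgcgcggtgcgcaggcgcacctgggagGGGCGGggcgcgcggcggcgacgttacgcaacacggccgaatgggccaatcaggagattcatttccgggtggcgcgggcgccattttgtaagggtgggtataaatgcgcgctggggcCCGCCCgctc
The E-box begins at -73 and at -32 from the start in Snrpa, at -18 in Hnrnpa3 and at -32 in Hnrnpd. Of the 43 members 39 had a promoter in the table, 55 promoters in all, and windows of 1 gene can overlap. The members without one were Snrpb, Snrpd1, Hnrnpll and Hnrnpul2. In windows of 300 bases (250 before and 50 after the start) CACGTG, which is its own reverse complement, was found in 7.15% of 32851 promoters. Among the members it was found in 7 of 55 promoters: in 2 of 14 of the snRNP genes, both of them of Snrpa, in 0 of 14 of the SR genes and in 5 of 27 of the hnRNP genes. The hnRNP genes with it were Hnrnpa3, Hnrnpd, Hnrnpf, Hnrnph2 and Hnrnpm. Of these Hnrnph2 was not called in Eμ-Myc against WT (log2 fold change 0.13). GGGCGG on either strand was found in 35.7% of all promoters, in 13 of 14 SR promoters, 21 of 27 hnRNP promoters and 5 of 14 snRNP promoters. It also occurs, left in lower case, in the printed sequences of Snrpa, Hnrnpa3 and Hnrnpd. These are matches of letters only; no binding was measured here.

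The deposited value of a gene was a coverage, divided here by a factor for each library. It was taken as a mean per base of the gene; that definition is not given in the sources used here, and levels of different genes are set side by side below on that assumption. The result is called scaled coverage. The summed coverage ran from 1277305.5 to 1885768.9 per library, and read numbers per gene are not known, so errors here are the spread between libraries. Differences were tested with limma on log2(scaled coverage + 0.5), and calls were made where p, adjusted by Benjamini-Hochberg across every gene in the fit, was under 0.05. Fold changes below are on that scale, which understates those of low genes. As a check of the labels, Prps2 ran from 102 to 143 (WT), from 198 to 285 (Eμ-Myc) and from 15.4 to 18.7 (knockout). Myc ran from 231 to 353, from 1551 to 2286 and from 1125 to 3123 in the same order. All 10 B-cell markers were above 1 in every library, with a summed scaled coverage of 9098 to 18261.

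The libraries also held markers of other cells, and knockout libraries 1 and 2 stood apart from 3 and 4 in those of T, NK and myeloid cells. The summed scaled coverage of 13 T-cell markers ran from 566 to 3640.2 in WT and from 116 to 169 in Eμ-Myc, and was 735, 836, 17.3 and 14.1 in knockout libraries 1 to 4. That of 10 NK-cell markers ran from 450.2 to 1840.1, from 119.9 to 299.6, and was 747, 558, 29.6 and 27.2. That of 12 myeloid markers ran from 8850 to 28157, from 5987 to 17545, and was 17195, 12291, 3022 and 1421. The sum of 6 platelet markers ran from 94.5 to 414 in WT and from 75.6 to 166 in Eμ-Myc, and was 151, 42.9, 36.8 and 39.9 in the knockout libraries, where only library 1 stood apart. Erythroid sums ran from 143 to 940.2, 274 to 787 and 257 to 442 in WT, Eμ-Myc and the knockout group, and plasma-cell sums from 705 to 1067, 1113 to 1359 and 948 to 1136. None of these markers was at 0 in all libraries. Called lower in Eμ-Myc than in WT were 13 of 13 T-cell, 10 of 10 NK-cell, 2 of 6 platelet, 2 of 7 plasma-cell and 1 of 10 B-cell markers, against 26.7% of all genes; 2 plasma-cell markers and 1 erythroid marker were higher. In the knockout against WT 5 of 6 platelet and 1 of 10 B-cell markers were lower, against 11.0% of all genes. Higher there were 1 of 7 plasma-cell and 1 of 10 erythroid markers, against 19.7% of all genes. In that comparison limma called 0 T-cell, 0 NK-cell and 0 myeloid markers (6, 3 and 0 at an unadjusted p under 0.05). The part of these cells in the results below was not tested. In such bulk samples, fewer cells of a type and less RNA per cell cannot be told apart.

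In WT the members were among the more highly covered genes, if the coverage is per length. The median of their mean scaled coverage was 168 for the snRNP genes, 287 for the SR genes and 392 for the hnRNP genes, against 34.5 for all genes tested. Hnrnpk (5568 ± 270.5, SD, n = 4), a KH-domain protein that binds poly(C), and Hnrnph1 (4326 ± 638), which binds runs of G, were highest, followed by Hnrnpc (2725 ± 331) and Srsf5 (2392 ± 604); the WT libraries of Hnrnpc and Srsf5 overlapped. Lowest were Srsf12 (1.35 ± 1.10), which was under the filter and not tested, Snrpn (9.12 ± 2.57) and Hnrnpll (44.9 ± 24.6).

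In Eμ-Myc cells 36 of the 42 members tested were higher than in WT and 1, Hnrnpll, was lower, where 29.1% of the 12704 genes tested were higher and 26.7% lower. All Eμ-Myc libraries lay above all WT libraries for 35 members, against 27.3% of all genes. The median log2 fold change of the members was 0.76, or 1.70-fold, and that of all genes was -0.05. By family, 11 of 12 snRNP genes rose, with a median of 1.21 (2.31-fold), 9 of 10 SR genes rose, with a median of 0.65 (1.57-fold), and 16 of 20 hnRNP genes rose, with a median of 0.64 (1.55-fold). The called rises ran from 0.92 to 1.84 in the snRNP genes, from 0.36 to 1.19 in the SR genes and from 0.35 to 1.38 in the hnRNP genes; whether the families differ from each other was not tested. Scaling by total coverage moved the median of all genes from -0.05 to -0.19 and that of the members to 0.62, with 33 called higher and 2 lower.

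**Figure D1:**
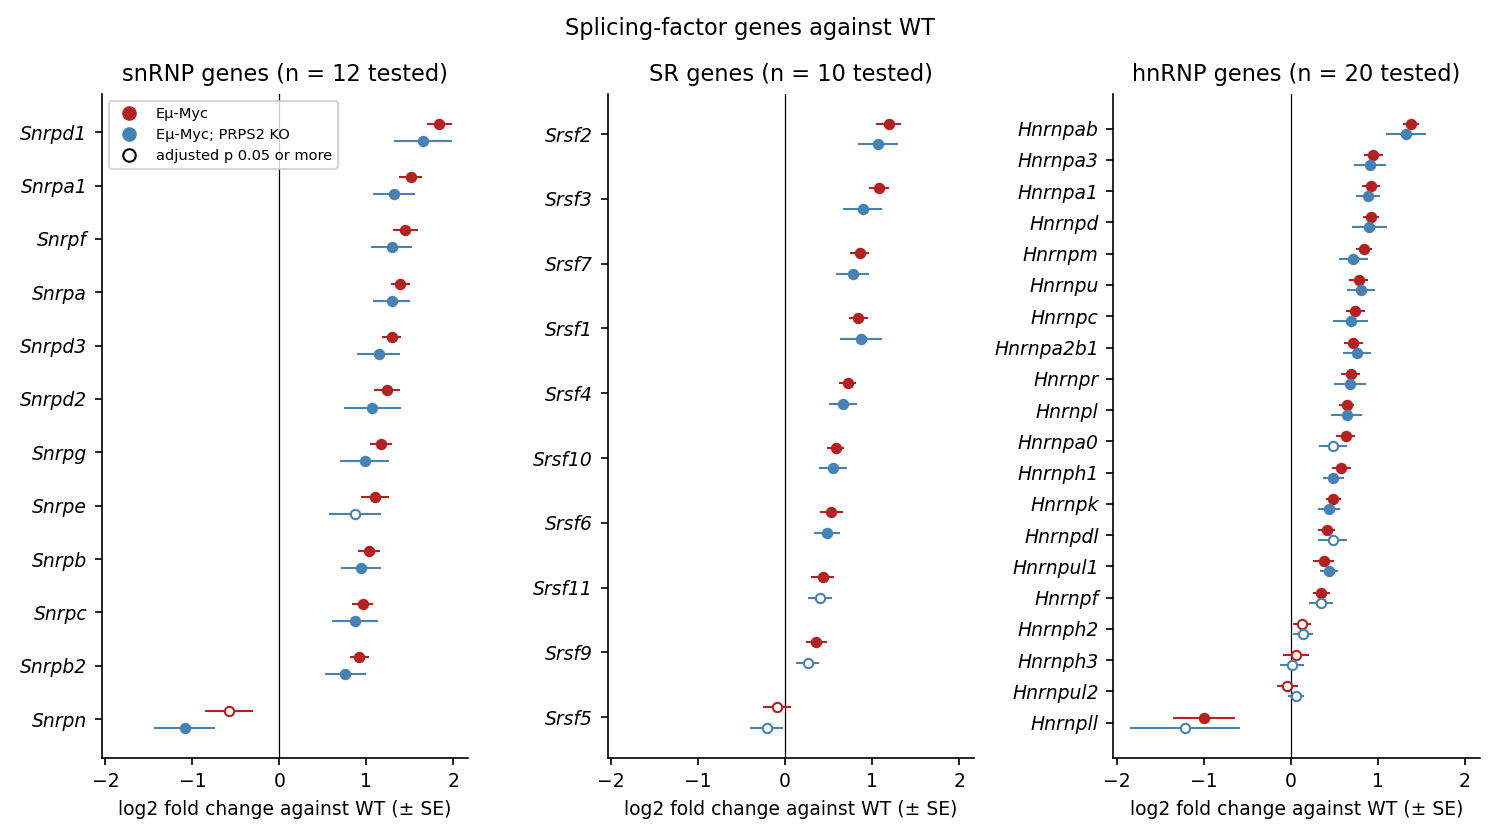
Log2 fold change against WT (horizontal axis, ± SE from limma) of the 42 members tested, in panels by family and sorted by the value in Eμ-Myc (red); the knockout group is in blue, and open points have an adjusted p of 0.05 or more. In each panel nearly all points lie right of 0, furthest for the snRNP genes, and Snrpn, Srsf5 and Hnrnpll lie left of it in both comparisons.

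All 7 genes of the Sm ring rose in Eμ-Myc: Snrpb, Snrpd1, Snrpd2, Snrpd3, Snrpe, Snrpf and Snrpg. Their summed scaled coverage was 1517, 1706, 1470.3 and 1644 in WT libraries 1 to 4 and 2926, 4407, 3801 and 3889 in Eμ-Myc libraries 1 to 4. The highest of the 7 means was 3.22 times the lowest in WT and 2.52 times in Eμ-Myc, with coverage taken as per length; the difference between these ratios was not tested.

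Snrpd1, which encodes SmD1, showed the largest rise of all members. Its scaled coverage was 110.4, 105, 100.5 and 105 in the WT libraries and 289, 456, 396 and 394 in those of Eμ-Myc. The groups were far apart, with the lowest Eμ-Myc library, number 1, above every WT library. On the log2 scale the rise was 1.84 (SE 0.14; adjusted p = 9.14e-06 by limma, higher in 4 of 4 libraries). Snrpf (chr10:93583029-93589706, minus strand), which encodes SmF, stood at 101, 105, 93 and 117 in WT and at 227, 347, 288 and 288 in Eμ-Myc. It rose by 1.45 (SE 0.14, adjusted p = 3.48e-05) with no overlap. The ring genes with smaller rises were Snrpd3 (1.29), Snrpd2 (1.24), Snrpg (1.17), Snrpe (1.10) and Snrpb (1.03), all called and all without overlap. Eμ-Myc library 1 was the lowest of its group for all 7 of them, and library 2 the highest.

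Genes of proteins particular to U1 and U2 rose as well. Snrpa (chr7:27187005-27196271, minus strand) encodes the A protein of the U1 particle, which binds a stem-loop of its RNA. It stood at 193, 229.6, 197 and 206 in WT and at 479, 638, 508 and 546 in Eμ-Myc, a rise of 1.39 (SE 0.11, adjusted p = 1.56e-05). Snrpc, which encodes the C protein of the U1 particle and takes part in 5′ splice site recognition, had with Snrpb2 the 2 smallest rises of the family; it stood at 111, 119, 98.1 and 119 against 183, 254, 212 and 224. Its rise was 0.96 (SE 0.12, adjusted p = 1.69e-04), still without overlap. The third U1 gene, Snrnp70, is not matched by the symbol rule; it rose by 0.39 (adjusted p = 0.0263).

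Snrpa1 (chr7:66059003-66074587, plus strand) encodes the A′ protein of the U2 particle, which helps the B″ protein bind U2 RNA. It stood at 129, 135, 115 and 141 in WT and at 314, 453, 348 and 379 in Eμ-Myc, the second largest rise of the members at 1.51 (SE 0.13, adjusted p = 1.87e-05). Its partner Snrpb2, which encodes the B″ protein, stood at 112, 114, 111 and 109 against 174, 241, 225 and 213. That is a rise of 0.92 (SE 0.11, adjusted p = 1.28e-04), and WT libraries of this gene differed by less than those of any other snRNP gene, with a coefficient of variation of 1.86%.

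Snrpn, the paralog of Snrpb that encodes SmN and is best known from brain, went the other way. It stood at 9.83, 6.14, 8.28 and 12.2 in WT and at 5.09, 8.60, 6.43 and 3.80 in Eμ-Myc. The groups overlapped, and the log2 fold change of -0.58 (SE 0.28) did not pass (adjusted p = 0.0984). It passed with total coverage scaling (-0.72), without Eμ-Myc library 2 (-0.77) and without WT library 2 (-0.75). Snrpn shares exons with Snurf on the same strand, and how reads of the Snrpn and Snrpb copies were assigned is not given in the sources used here.

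Among the SR genes, Srsf2 and Srsf3 led. Srsf2 (chr11:116849901-116853094, minus strand; SC35), a constitutive and enhancer-dependent factor, stood at 356, 293, 268 and 413 in WT and at 689, 800.2, 742 and 777 in Eμ-Myc, a rise of 1.19 (SE 0.14, adjusted p = 1.17e-04). Its exons overlap those of Mettl23 and Mfsd11 on the opposite strand, whose means were 129.6 and 57.3 in WT and 110.4 and 50.8 in Eμ-Myc. Srsf3 (chr17:29032628-29043373, plus strand; SRp20), the smallest classical SR protein, stood at 339, 345, 302 and 366 against 599.9, 806, 745 and 719.9, a rise of 1.08 (SE 0.11, adjusted p = 6.27e-05). Neither gene had a WT library as high as any of Eμ-Myc.

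Srsf7 (9G8), which also acts in mRNA export, stood at 973, 955, 865 and 1104 against 1569, 1931, 1735 and 1813, a rise of 0.86 (SE 0.11, adjusted p = 1.64e-04). Srsf1 (SF2/ASF), the first SR protein described and a known proto-oncogene, stood at 269, 301, 298 and 282 against 496, 433, 543 and 605, a rise of 0.84 (SE 0.11, adjusted p = 2.79e-04). Both were separated from WT in all libraries. Srsf4 (0.72), Srsf10 (0.58), Srsf6 (0.53) and Srsf11 (0.43) rose by less.

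Srsf9 and Srsf5 had the smallest values of the family. Srsf9 (SRp30c) stood at 249, 250.2, 209 and 191 against 277, 336, 263 and 275, a rise of 0.36 (SE 0.12, adjusted p = 0.0335) that did not pass with total coverage scaling (0.22, adjusted p = 0.112). It also failed without Eμ-Myc library 1, 2 or 4 (0.38, 0.28 and 0.38) and without WT library 3 or 4 (0.33 and 0.29). Srsf5 (SRp40), the most highly covered SR gene, stood at 2622, 1937, 1869 and 3140.3 in WT and 2239, 2293, 2215 and 2069.6 in Eμ-Myc. The Eμ-Myc libraries lay inside the range of WT, with a log2 fold change of -0.09 and a 95% interval from -0.45 to 0.28 (adjusted p = 0.677). By its mean, Srsf5 was the highest SR gene in all 3 groups. Srsf12, not tested, stood at 0.819, 0.567, 1.06 and 2.97 in WT and at 0.189, 0.272, 0 and 0.224 in Eμ-Myc. Every Eμ-Myc library was below every WT library, in files that give coverage to 1 decimal.

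**Figure D2:**
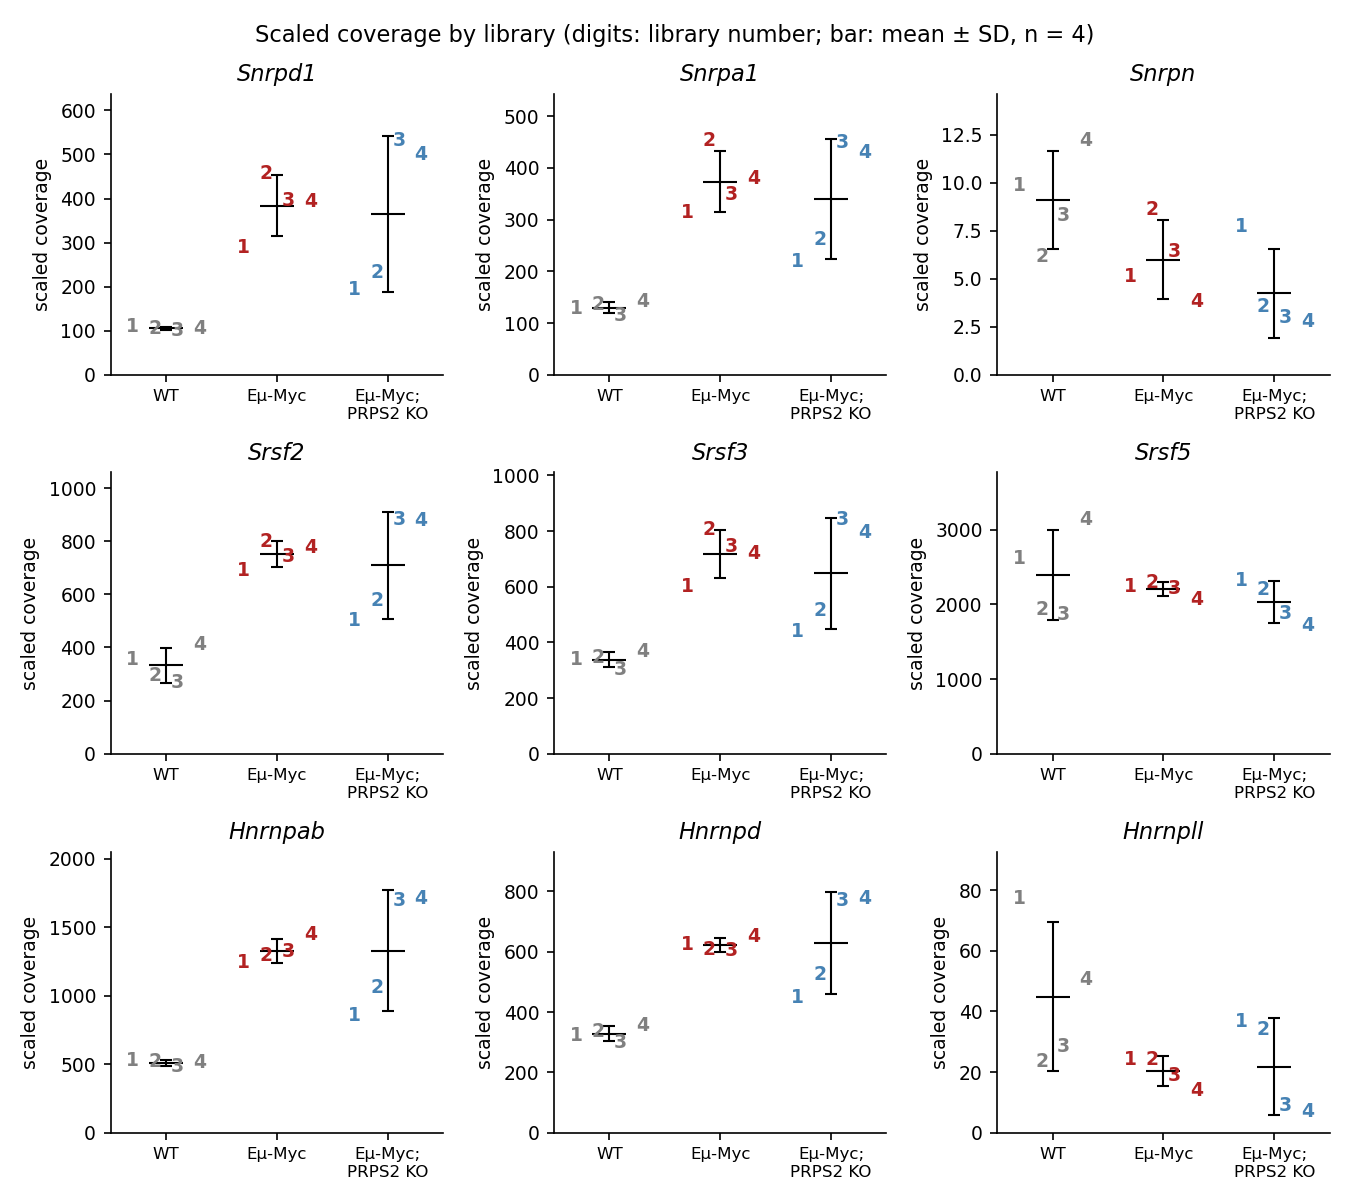
Scaled coverage (vertical axes, linear from 0) of 9 members in each library; digits give the library number within WT (grey), Eμ-Myc (red) and the knockout group (blue), and bars the mean ± SD of 4 libraries. In 6 of the 9 panels every Eμ-Myc library is above every WT library; the exceptions are Snrpn, Srsf5 and Hnrnpll. In the same 6 panels knockout libraries 3 and 4 lie above 1 and 2.

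The hnRNP gene with the largest rise was Hnrnpab (chr11:51600100-51606847, minus strand), whose product binds AU-rich RNA. It stood at 527, 521, 481 and 511 in WT and at 1242, 1290.1, 1324 and 1447 in Eμ-Myc, with little spread in either group. Its rise of 1.38 (SE 0.09) had the smallest adjusted p of all members (limma, 4.73e-06). Its relative Hnrnpd (AUF1), a factor of mRNA decay, stood at 324, 336, 299 and 357 against 625, 607, 603 and 652, a rise of 0.92 (SE 0.09, adjusted p = 3.76e-05). The third gene of this subgroup, Hnrnpdl, rose by 0.41 (adjusted p = 0.00729).

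Of the A/B proteins, Hnrnpa1 (chr15:103240432-103246692, plus strand), the classical antagonist of SRSF1 in splice site choice, stood at 1053, 970.2, 918 and 1171 in WT and at 1916, 1859, 1937 and 2067 in Eμ-Myc. It rose by 0.92 (SE 0.10, adjusted p = 7.11e-05). Hnrnpa3 stood at 608, 542, 552 and 671 against 1093, 1016, 1205 and 1264, a rise of 0.95 (SE 0.11, adjusted p = 1.05e-04). Hnrnpa2b1 (0.72) and Hnrnpa0 (0.63) completed the subgroup, and all 4 were free of overlap between the groups. Hnrnpa1 has many processed copies in the genome, and their treatment in counting is not given in the sources used here.

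Of the most highly covered hnRNP genes, Hnrnpc rose by 0.74, above the family's median of 0.64, and Hnrnph1 (0.58) and Hnrnpk (0.49) rose by less than it. Hnrnpm (0.84), Hnrnpu (0.78), Hnrnpr (0.69) and Hnrnpl (0.64) lay near or above the median of the family. Hnrnpul1 (0.38) and Hnrnpf (0.35) had the smallest called rises, and the groups of Hnrnpul1 overlapped at Eμ-Myc library 2. The call of Hnrnpul1 (adjusted p = 0.0264) was lost with total coverage scaling (0.24, adjusted p = 0.191), without Eμ-Myc library 1, 3 or 4 and without WT library 2 (adjusted p from 0.0566 to 0.0806). That of Hnrnpf (adjusted p = 0.0150) was lost with total coverage scaling (0.21, adjusted p = 0.139) and without Eμ-Myc library 3 or 4 (adjusted p = 0.0537 and 0.0542). Within the H/F subgroup Hnrnph1 and Hnrnpf were called, while Hnrnph2 (0.13, 95% interval -0.10 to 0.37) and Hnrnph3 (0.06, -0.27 to 0.39) were not.

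The 2 lowest hnRNP values were those of Hnrnpul2 and Hnrnpll. Hnrnpul2, a nuclear matrix protein, stood at 151, 150.4, 145 and 145 in WT and at 159, 111, 157 and 153 in Eμ-Myc, with a log2 fold change of -0.04 (95% interval -0.32 to 0.24, adjusted p = 0.794). Library 2 alone lay below WT. Hnrnpll (chr17:80029487-80062334, minus strand), known for controlling Ptprc exon choice in T cells and plasma cells, was the single member called lower. It stood at 77.3, 23.4, 28.4 and 50.4 in WT and at 24.2, 24.2, 19.0 and 14.1 in Eμ-Myc, where the groups overlapped. Its 0.502-fold level (SE 0.36 on the log2 scale, adjusted p = 0.0423) did not pass the test without any 1 of the 4 Eμ-Myc libraries (adjusted p from 0.0542 to 0.108), without WT library 1 (-0.68 on the log2 scale, adjusted p = 0.0743) or without WT library 4 (-0.89, adjusted p = 0.0945). It also did not pass in a joint fit of all 12 libraries (adjusted p = 0.150) or with no filter on low genes (adjusted p = 0.0516). WT libraries 1 and 4, its highest, also had the highest T-cell marker sums, 1165 and 3640.2 against 566 and 777. The same held for the sums of NK cells (1322 and 1840.1 against 450.2 and 521) and myeloid cells (28157 and 15377 against 8850 and 9120). It held for erythroid sums too, while B-cell and platelet sums were lowest in these libraries. Other members, among them Snrpn, Srsf5 and Srsf2, were also highest in WT libraries 1 and 4. The part of other cells in the Hnrnpll value was not tested.

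Other genes of the splicing machinery were taken from lists drawn up by function. Over these lists 77 of 112 genes tested rose and 9 fell in Eμ-Myc, with a median of 0.61, against the 29.1% and 26.7% of all genes; 0 of 112 were called in the knockout against Eμ-Myc, and 55 higher and 5 lower in the knockout against WT, where 19.7% of all genes were higher and 11.0% lower. Of the LSm proteins, which form the ring of U6 and of the decay machinery, 7 of 8 rose, led by Lsm2 (1.69) and Lsm7 (1.57), while Lsm1 stood at 0.06 (adjusted p = 0.718). Of the branch-site and U2AF genes 12 of 13 rose, led by U2af1 (1.31) and Phf5a (1.29); Sf3b1 stood at -0.21 (adjusted p = 0.198). Of the tri-snRNP and Prp genes 18 of 25 rose, led by Ppih (1.61) and Snu13 (1.40), and Dhx8 stood at -0.01 (adjusted p = 0.928).

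Of the genes for snRNP assembly, a list that holds the SMN and methylation complexes and also Phax, Snupn, Tgs1 and Coil for transport, cap and Cajal body steps, 14 of 17 rose. Prmt5, which methylates Sm proteins before assembly, went from 140.5 ± 13.3 to 437 ± 39.5 (SD, n = 4), a rise of 1.63 (adjusted p = 5.35e-06), and Gemin6 of the SMN complex rose by 1.58. Gemin7 stood at -0.10 (adjusted p = 0.592). Of the minor spliceosome genes 4 of 9 were higher, led by Snrnp35 (1.29) and Snrnp25 (0.78). Another 2 of the 9 were lower, of which Zrsr1 was lowest at -1.01. Among all genes tested 29.1% were higher and 26.7% lower. Of the SR-related genes 9 of 13 rose, led by Rnps1 (1.15) and Tra2b (0.84), and Son fell by 0.32. Of the other hnRNP-like genes 12 of 18 rose, led by Syncrip (0.96) and Ptbp1 (0.89), and 3 fell, Cirbp the most at -0.80. The counts of all these lists stand beside the same shares of all genes, 29.1% higher and 26.7% lower.

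Of 8 kinases tested that phosphorylate SR proteins, 3 were called lower in Eμ-Myc, against 26.7% of all genes, and 5 were not called; the median was -0.23. Srpk3 fell from 93.1 ± 35.8 to 26.3 ± 6.46, a log2 fold change of -1.76 (SE 0.28, adjusted p = 7.40e-04), Clk1 fell by 0.55 and Srpk2 fell by 0.39. Srpk1 (0.51, adjusted p = 0.0681) and Clk3 (-0.16, adjusted p = 0.350) had the highest values and did not pass.

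Against Eμ-Myc, 0 of the 42 members were called in the knockout group, and limma called 1 of 12535 genes, Prps2 itself (0.00798%). The count of members at an unadjusted p under 0.05 was also 0, no other tool was run, and 0 members had groups without overlap, against 1.43% of all genes. The median log2 fold change was -0.07 over the members and -0.05 over all genes, with family medians of -0.17 (snRNP), -0.06 (SR) and -0.03 (hnRNP). The highest value was 0.10 (Hnrnpul2) and the lowest -0.51 (Snrpn, SE 0.36), and the 95% intervals of both included 0 (-0.22 to 0.41 and -1.34 to 0.32).

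The intervals of the snRNP genes were wide. That of Snrpd1 (-0.19) ran from -1.01 to 0.62, that of Snrpd2 (-0.18) from -0.97 to 0.61 and that of Snrpe (-0.22) from -0.96 to 0.51. They were narrower for Hnrnph1 (-0.09, from -0.30 to 0.12) and Srsf6 (-0.05, from -0.28 to 0.18). These bounds do not show that the groups were alike.

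The knockout group also had the widest spread between libraries. The median coefficient of variation over the snRNP genes was 8.68% (WT), 16.2% (Eμ-Myc) and 35.5% (knockout), that of the SR genes 10.9%, 9.90% and 21.0%, and that of the hnRNP genes 8.31%, 8.84% and 21.4%. Over all genes tested it was 15.5%, 15.3% and 26.8%. Snrpd1 stood at 194, 231, 532 and 501 in knockout libraries 1 to 4, so libraries 1 and 2 lay below all 4 of Eμ-Myc and libraries 3 and 4 above all 4. Snrpa1 was at 219, 261, 448 and 430.1, Snrpf at 171, 206, 344 and 338, and Snrpa at 364, 418, 636 and 677. The summed coverage of the 7 ring genes, 2119, 2559, 4839 and 4594, followed the same order.

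**Figure D3:**
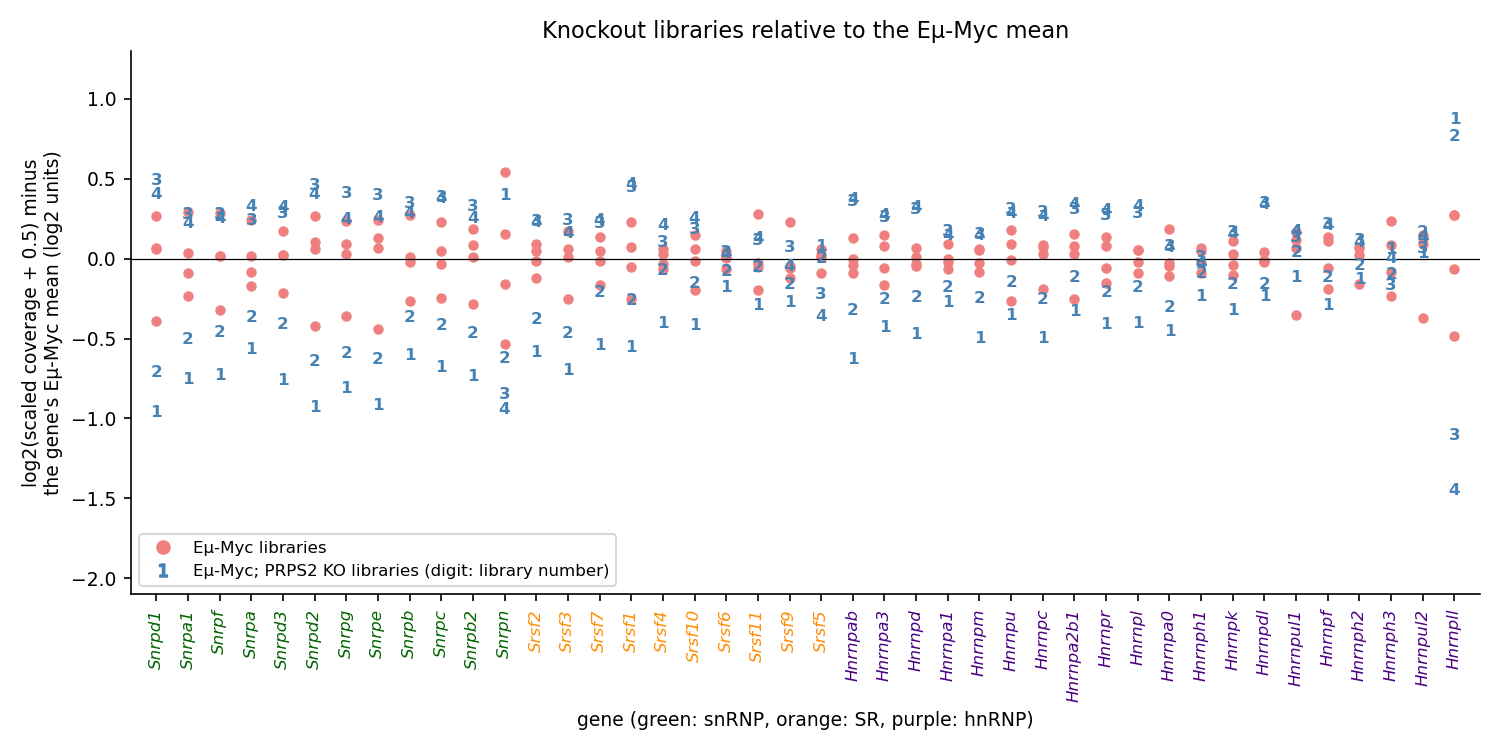
Log2(scaled coverage + 0.5) minus the gene's mean in Eμ-Myc (vertical axis, log2 units) for the 42 members tested, by family (colour of the names); digits are the 4 knockout libraries and dots the 4 Eμ-Myc libraries. For most genes digits 3 and 4 lie above 0 and digits 1 and 2 below, and Hnrnpll shows the reverse order with the widest range.

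The same order held for most members of all families. Knockout libraries 3 and 4 were both above 1 and 2 for 37 of the 43 members, against 40.8% of all genes tested, and both below for 4 members, Snrpn, Srsf5, Srsf12 and Hnrnpll, against 46.1%. Hnrnph3 and Hnrnpul2 were mixed. Libraries 1 and 2 were below all Eμ-Myc libraries for 30 members (24.0% of all genes) and libraries 3 and 4 above all of them for 27 members (26.7%). The libraries were set apart here after their values were known, so these counts are a description.

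SR and hnRNP genes gave values of the same kind. Srsf2 stood at 499.8, 576, 882 and 878 in the knockout libraries, Srsf3 at 439, 516, 842 and 794, and Srsf1 at 350.1, 429, 701 and 712. Srsf7 was at 1203, 1519, 2045 and 2075, Srsf9 at 237, 256, 301 and 277, and Srsf5 at 2323, 2199, 1883 and 1713. All but Srsf5 were higher in libraries 3 and 4 than in 1 and 2.

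Hnrnpab stood at 854, 1058, 1696 and 1709.6, Hnrnpd at 448, 524, 769 and 777, and Hnrnpdl at 441, 465, 660.1 and 657. Hnrnpa1 was at 1603, 1711, 2186 and 2146 and Hnrnpa3 at 846, 957, 1361 and 1372, while Hnrnpul2 was level at 147, 161, 150.1 and 157. Hnrnpll ran the other way, at 36.8, 34.2, 8.98 and 6.97, and Snrpn, Srsf5 and Srsf12 were also lower in libraries 3 and 4. So were the marker sums of T cells (735, 836, 17.3 and 14.1), NK cells (747, 558, 29.6 and 27.2) and myeloid cells (17195, 12291, 3022 and 1421). Sums of B-cell and platelet markers were lower there as well, and those of erythroid markers higher. Myc was at 1125, 1724, 2871 and 3123 in the same libraries. The part of Myc level and of other cells in the order of the members was not tested.

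Leaving out knockout libraries 1 and 2 was likewise chosen with their values known, so the counts without them describe the other libraries and are no test of the knockout. Of the members, 4 then passed limma's threshold against Eμ-Myc, beside 25.9% of all genes. They were Hnrnpab (0.36), Hnrnpd (0.32) and Hnrnpdl (0.34) with values above 0 and Hnrnpll (-1.28) with one below, and the median of the members was 0.24. With a quality weight for each library, which was lowest for knockout libraries 1 and 2 (0.0851 and 0.132), 22 members were higher and 3 lower, and 55.8% of all genes were called. With all 4 knockout libraries and equal weights the count was 0.

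**Figure D4:**
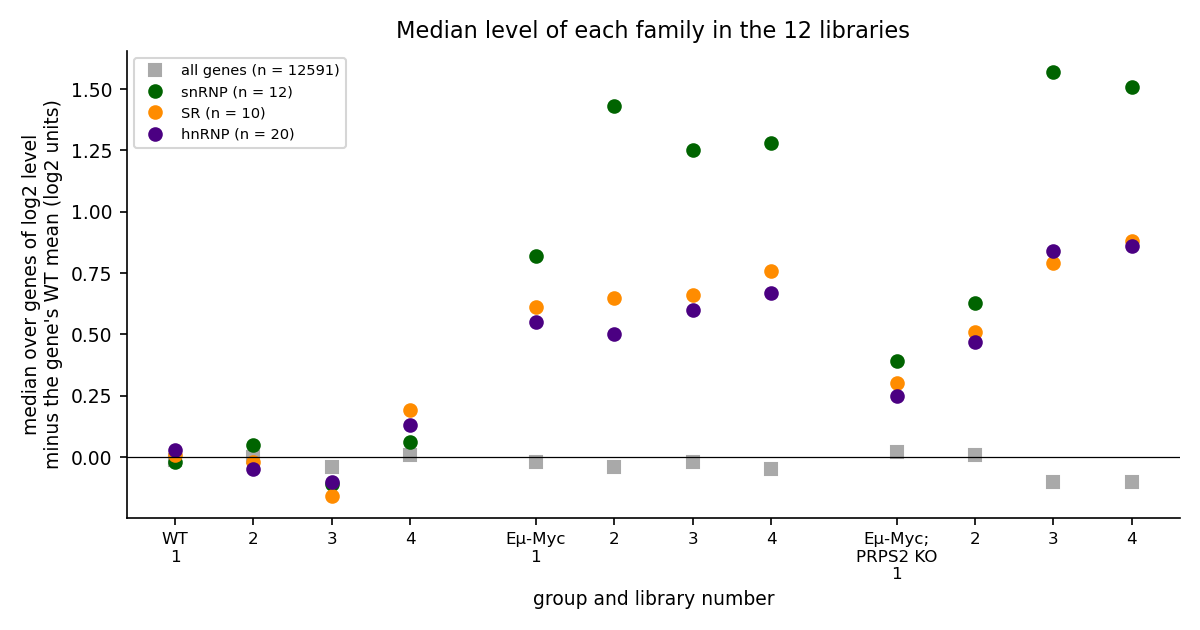
Median over the genes of a family (vertical axis) of the log2 level in a library minus the gene's WT mean, for the 12 libraries (horizontal axis); grey squares are all 12591 genes tested against WT in both comparisons. The snRNP medians are 0.82 to 1.43 in Eμ-Myc and 0.39, 0.63, 1.57 and 1.51 in knockout libraries 1 to 4, while the medians of all genes stay between -0.10 and 0.02.

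Against WT, 30 of the 42 members were higher in the knockout group and 1, Snrpn, was lower, where 19.7% of 12692 genes were higher and 11.0% lower. The groups did not overlap for 30 members, against 22.0% of all genes higher in this way. The median of the members was 0.74 and that of all genes -0.07; this comparison and that of Eμ-Myc against WT share the WT libraries. Called higher were 10 of 12 snRNP genes, 7 of 10 SR genes and 13 of 20 hnRNP genes. The largest rises were those of Snrpd1 (1.65, SE 0.33, adjusted p = 0.0167), Snrpa1 (1.32), Hnrnpab (1.32), Snrpf (1.29) and Snrpa (1.29), and Srsf2 led the SR genes with 1.07 (adjusted p = 0.0200).

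Some members called in Eμ-Myc missed the threshold here. Snrpe stood at 0.87 (SE 0.30, adjusted p = 0.0562) against 1.10 in Eμ-Myc, Hnrnpa0 at 0.48 (adjusted p = 0.0502) against 0.63, and Srsf11 at 0.40 (adjusted p = 0.0558) against 0.43. Hnrnpll stood at -1.22 with an interval from -2.67 to 0.22 (adjusted p = 0.143). Snrpn fell by 1.09 (SE 0.35, adjusted p = 0.0473), from 9.12 ± 2.57 to 4.23 ± 2.33, with library values of 7.70, 3.54, 2.96 and 2.75 that overlapped with WT; the call was lost without any 1 of the WT libraries and without knockout library 2, 3 or 4 (adjusted p from 0.0717 to 0.125), with no filter on low genes (adjusted p = 0.0597) and with the replicate block (adjusted p = 0.0698).

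How many members passed against WT depended on single libraries. The count of 31 fell to 8 without knockout library 3, 8 without knockout library 4, 10 without WT library 1, 5 without WT library 2, 5 without WT library 3 and 17 without WT library 4, and was 36 and 30 without knockout libraries 1 and 2. The share of all genes called fell as well, to between 6.22% and 13.3% in the first 6 cases, and the median of the members stayed between 0.63 and 0.87 in all 8. Without knockout library 1 the share was 54.0% and without library 2 it was 34.6%, against 30.7% with all libraries. Without both the count was 38, of which 36 were higher, beside 70.0% of all genes, and the median was 1.03.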

How the data were processed

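Per the labels' protocols, B lymphocytes of spleen were lysed and polyA RNA was made into directional libraries. The authors deposited a table for each library holding 1 coverage value per gene symbol, a signal given to 1 decimal; 91.6% of values above 0 were not whole, and log2 coverage fell with log2 transcript length (slope -0.62 to -0.38). Its definition, the aligner, the annotation and any use of strand in counting are not given in the sources used here; mm10 and R 4.3.3 are named per the submitters' processing notes. Exons of 11 members overlap another listed gene, 9 of them one on the opposite strand.

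Libraries were scaled by unweighted trimmed means of log ratios (30% of ratios and 5% of means trimmed, coverage of at least 1 in both libraries). A gene entered a fit if at least 4 of the 8 libraries had it at a scaled coverage of 1 or more. limma 3.58.1 in R 4.3.3 (trended, robust empirical Bayes, two-sided) was run on log2(scaled coverage + 0.5) for each pair of groups alone. Python 3.11.15 with numpy 2.4.6, pandas 2.3.3 and matplotlib 3.10.9 served for the rest. The fit was tested on simulated data. Coordinates are those of GENCODE on GRCm38.

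The members and lists were chosen with earlier results of these data known. Values of every library are given for the 4 largest and 2 smallest log2 fold changes of each family in Eμ-Myc against WT (mean scaled coverage of at least 8) and for members called against their family's majority; of each other list the 2 largest and the smallest are named. Hnrnpdl by library, Clk1, Srpk2 and Snrnp70 were named after their values were seen.

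Alternatives were scaling by median of ratios or by total coverage, pseudocounts of 0.1 and 2, no filter, a minimum of 10 in each library, a joint fit of the 12 libraries, a replicate block, library quality weights, leaving out each library, and leaving out knockout libraries 1 and 2. Deviations from the group mean of same-numbered knockout and Eμ-Myc libraries were correlated (r over genes of 0.657, 0.192, 0.245 and 0.615), each over 0.1, so these numbers were treated as pairs in the block; only the values speak for this pairing, and numbers 2 and 3 were not matched best by their own. The titles call the replicates biological, and whether each is 1 animal is not given in the sources used here.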

Additional observations from a re-analysis of the deposited data

Results flagged for a closer look

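Of 57 sets of 4 libraries checked for the members named with every library, 2 had a library far from the other 3, where chance gives about 1 in 20 (5%). Hnrnpul2 in Eμ-Myc library 2 was at 111, with the next library at 153 and the highest at 159. Snrpn in knockout library 1 was at 7.70, with the next at 3.54 and the lowest at 2.75.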

How the results depend on the processing

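The count of members called in Eμ-Myc against WT was 37, beside 55.8% of all genes. It lay between 33 and 38 under all alternatives, with 11 snRNP rises called in each. Against Eμ-Myc the count in the knockout group was 0, also with the replicate block. It became 4 without knockout libraries 1 and 2 and 25 with library quality weights. Both stand beside the large shares of all genes called in the same fits, given above, and are not particular to the members. Against WT the count was 31, beside 30.7% of all genes, and 15 with the replicate block, beside 15.2%. The numbers do not pair these groups (r of 0.399, -0.423, 0.134 and -0.0595, and only number 1 was matched best by its own). The count was 5 to 36 when 1 library was left out, where the share of all genes moved as well, as given above. The quality weights of that comparison did not converge. The block left the other 2 counts at 37 and 0.

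Some values turned sign. In Eμ-Myc against WT, Srsf5 was 0.09 with quality weights and -0.19 to 0.06 with 1 library left out, and Hnrnpul2 was 0.06 and -0.09 to 0.08. In the knockout against WT, Hnrnpul2 was -0.04 with total coverage. Hnrnph3 lay between -0.08 and 0.14 over the alternatives of the first comparison and between -0.08 and 0.13 over those of the second, and turned in 3 and 6 of them; Hnrnph2 turned in 1 of the first. In the knockout against Eμ-Myc, leaving out knockout libraries 1 and 2 gave 0.36 (Hnrnpab), 0.32 (Hnrnpd), 0.31 (Snrpb) and 0.20 (Srsf3), and quality weights 0.33, 0.31, 0.32 and 0.15. Hnrnpd was 0.02 with median-of-ratios and 0.02 with total coverage scaling. Leaving out 1 library gave -0.20 to 0.13 (Hnrnpab), -0.14 to 0.13 (Hnrnpd), -0.23 to 0.09 (Snrpb), -0.13 to 0.21 (Srsf1), -0.02 to 0.17 (Hnrnpdl), -0.60 to 0.18 (Hnrnpll) and -0.03 at the lowest (Hnrnpul2). Over all 42 members the sign turned in 139 values of that comparison, 8 of Eμ-Myc against WT and 7 of the knockout against WT. The cause was not tested. Depth limits cannot be given, since read numbers are unknown.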
